A study of Mus musculus with 9 samples.

Results

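The genes described here were 10 members of the BCL2 family, out of 17596 genes in the deposited table of RNA sequencing values. They were chosen by gene symbol: the survival genes Bcl2, Bcl2l1, Mcl1 and Bcl2a1b, the effector genes Bax and Bak1, and the BH3-only genes Bcl2l11, Bbc3, Pmaip1 and Bid. Each symbol matched 1 gene and all 10 were expressed above the limit for testing, a mean of at least 1 FPKM. The RNA came from primary B cells of the spleen of Mb1Cre mice (control) and of Mct1f/f Mb1Cre mice (Mct1-deficient), on a C57BL/6J background and 6 to 8 weeks old. Cells were taken naive on day 0, or activated for 3 days by IL-4 (50 ng/ml) together with LPS (10 μg/ml), a combination used to activate B cells for class switching. There were 2 control and 2 Mct1-deficient libraries on day 0, and 2 control and 3 Mct1-deficient libraries on day 3. Mct1, whose gene symbol is Slc16a1, encodes a plasma membrane transporter of lactate, pyruvate and other monocarboxylates. Mb1-Cre acts in the B cell lineage and is carried by the control mice as well, so the groups differ in the floxed Mct1 allele and not in Cre. The FPKM cover the whole gene, the part outside the floxed sites included. The labels name no individual mouse, and the p-values below measure the spread between these libraries, which may be technical.

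The BCL2 family decides whether the outer mitochondrial membrane stays intact. Survival members bind and hold the effectors BAX and BAK, which otherwise form pores that release cytochrome c, and BH3-only members sense stress and either neutralise the survival members or engage the effectors. Naive B cells depend on survival signals to stay alive, and activated B cells change which survival members they use. MCL-1 protein is turned over rapidly by the proteasome, and several BH3-only genes are targets of FOXO factors or of p53. All values here are of RNA and say nothing of protein levels.

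The sequences that bear on what follows are those of a group of near-identical Bcl2a1 genes and those of the promoters of Bcl2l11 and Bbc3. Bcl2a1b lies at chr9:89199209-89207827 on the plus strand in GRCm38, beside Bcl2a1a (chr9:88956900-88962419, plus strand) and Bcl2a1d (chr9:88723285-88731914, minus strand). Of the 768 different 50-base words in the Bcl2a1b transcript, 57.6% also occurred in Bcl2a1d and 41.1% in Bcl2a1a, so how reads were split between the copies is uncertain. In addition, 49.1% of the exon bases of Bcl2a1b overlap exons of Gm29094 on the same strand. The stretch of 90 bases with the fewest mismatches upstream of the RefSeq starts of the 3 genes (GRCm38.p6) is shown to let the copies be compared, in lower case with the base that differs in a capital. It was read from chr9:89199023-89199112 for Bcl2a1b, chr9:88956714-88956803 for Bcl2a1a and, on the minus strand, chr9:88731961-88732050 for Bcl2a1d.
Bcl2a1b: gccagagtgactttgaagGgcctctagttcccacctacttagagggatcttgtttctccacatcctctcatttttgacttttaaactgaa
Bcl2a1a: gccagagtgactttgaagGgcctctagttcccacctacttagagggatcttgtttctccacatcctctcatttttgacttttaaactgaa
Bcl2a1d: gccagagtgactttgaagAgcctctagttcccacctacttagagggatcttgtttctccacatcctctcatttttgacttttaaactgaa
Bcl2a1a had 0 mismatches to Bcl2a1b in this stretch and Bcl2a1d had 1, the substitution G19A counted from the 5′ end.

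RefSeq promoters were matched for 9 of the 10 members. The letters GTAAACA of the FOXO motif were searched on both strands of 300 bases around each start and occurred in 3.65% of all 32851 promoters. Among the 9 members they were found in 1 of 2 promoters of Bcl2l11 and 1 of 3 of Bbc3, both BH3-only genes. Bcl2l1 also had 3 promoters searched, and each other matched member had 1. The bases before these starts are given below (Bcl2l11, chr2:128125788-128126037, plus strand; Bbc3, chr7:16310011-16310260, plus strand; RefSeq, GRCm38.p6), with the matching letters in capitals. They lie on the plus strand in Bcl2l11 and as the reverse complement in Bbc3.
Bcl2l11: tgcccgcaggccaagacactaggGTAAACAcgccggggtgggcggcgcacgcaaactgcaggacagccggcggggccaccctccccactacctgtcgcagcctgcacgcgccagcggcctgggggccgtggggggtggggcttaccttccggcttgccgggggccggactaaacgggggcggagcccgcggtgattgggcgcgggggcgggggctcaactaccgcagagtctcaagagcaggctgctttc
Bbc3: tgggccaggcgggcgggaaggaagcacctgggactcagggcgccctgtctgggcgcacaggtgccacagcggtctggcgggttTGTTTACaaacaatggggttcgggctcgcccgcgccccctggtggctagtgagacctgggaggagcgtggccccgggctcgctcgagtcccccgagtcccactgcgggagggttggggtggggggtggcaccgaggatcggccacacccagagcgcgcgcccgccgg
The E-box letters CACGTG (7.15% of all promoters) matched at 2 places in the Bax promoter and at 1 in a Bbc3 promoter. The letters TTCNNNNGAA, the core of the STAT6 motif (6.95% of all promoters), matched at 1 of the 3 starts of Bcl2l1. The NF-κB motif (8.46% of all promoters) matched at 1 place in a Bcl2l1 promoter, at 2 overlapping places in a Bbc3 promoter and at 0 in the other members, Bcl2a1b included. A match of letters does not show that a factor binds there.

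Whole libraries were close to each other within a group, with a Pearson r of at least 0.993 over log2 values, and their FPKM sums were 477079 to 491459 on day 0 and 547355 to 563586 on day 3. Slc16a1, the targeted gene, was at 22.6 and 22.9 FPKM in the control libraries on day 3 and at 10.8, 9.81 and 9.5 FPKM in the Mct1-deficient libraries, a log2 difference of -1.11 ± 0.07 (SE, adjusted p = 9.07e-06, limma). On day 0 the same gene was at 4.33 and 3.80 FPKM in control and at 3.71 and 4.06 FPKM in Mct1-deficient libraries, so it checks the labels on day 3 and not on day 0. The 7 measured B cell markers were present in every library. Summed markers of myeloid cells stood at 1190 to 2280 FPKM in naive libraries and 24.1 to 35.9 FPKM in activated ones, and those of erythroid and of T and NK cells also dropped. Summed plasma cell markers were 134 to 150 FPKM in control and 191 to 234 FPKM in Mct1-deficient libraries on day 0. On day 3 they were 379 to 393 FPKM against 321 to 352 FPKM. The plasma cell marker Jchain (log2 difference 0.966, adjusted p = 0.0193, limma) and the erythroid marker Hba-a1 (0.638, adjusted p = 0.0293) were higher in Mct1-deficient libraries on day 0. Their part in the results below was not tested. Mct1-deficient replicate 1 of day 0 stood apart from the other 3 of that day, with 2280 FPKM of myeloid markers and 31.1 FPKM of the Y-linked gene Ddx3y. The other day 0 libraries had at most 0.24 FPKM of Ddx3y and the day 3 libraries had 14.7 to 16.9 FPKM. Activation and the sex of the mice can therefore not be told apart in the control libraries. The naive Mct1-deficient pair was mixed, with Ddx3y at 31.1 and 0.2 FPKM. Sex thus also enters the genotype comparison on day 0, the activation of Mct1-deficient cells and the interaction of genotype and day, and its part was not tested. In bulk RNA fewer cells of a type and less RNA per cell cannot be told apart.

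**Figure D1:**
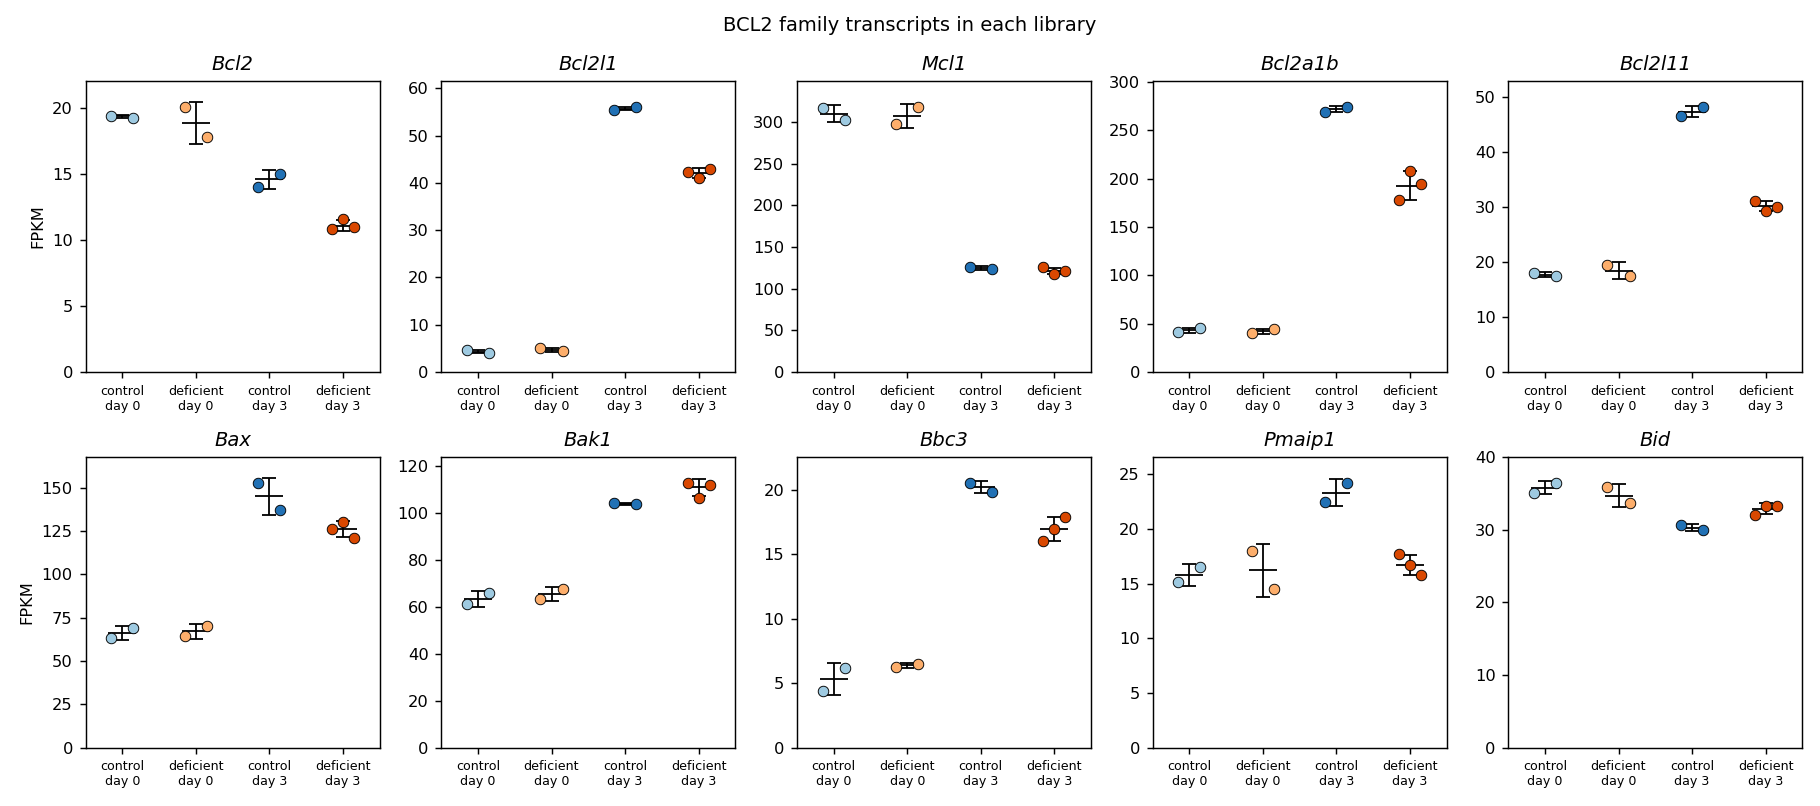
FPKM of the 10 genes in each of the 9 libraries, with 1 panel per gene and a vertical axis from 0. Points are libraries, horizontal bars are group means and whiskers are the SD over 2 or 3 libraries. Bcl2l1, Bcl2a1b and Bcl2l11 were higher on day 3 than on day 0, and on day 3 the Mct1-deficient points lay below both control points.

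The transcripts of naive cells were compared first, as the baseline. Mcl1 had the highest level of the 10 genes per length, at 310 ± 10.1 FPKM (SD, n = 2) in control cells. Bax (66.1 ± 4.06 FPKM) and Bak1 (63.4 ± 3.27 FPKM) followed, and their libraries overlapped each other. Bcl2a1b (43.4 FPKM), Bid (35.8 FPKM), Bcl2 (19.4 FPKM), Bcl2l11 (17.7 FPKM) and Pmaip1 (15.8 FPKM) came next, with no overlap between neighbours in that order. Bbc3 (5.32 FPKM) and Bcl2l1 (4.31 FPKM) were lowest and overlapped. The order of the means was the same in Mct1-deficient naive cells, where the libraries of Bcl2, Bcl2l11 and Pmaip1 overlapped with their neighbours and those of Bbc3 and Bcl2l1 did not.

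None of the 10 members was called between the genotypes on day 0 (limma on log2(FPKM + 1), with a call needing both an adjusted p under 0.05 and a log2 difference over 0.5), while 0.277% of the 10823 genes tested were called in either direction. With all libraries no member passed the adjusted p alone, and 1 member, Bbc3, had an unadjusted p under 0.05. Bbc3, which encodes PUMA, was at 4.43 and 6.2 FPKM in control and 6.27 and 6.50 FPKM in Mct1-deficient libraries, a log2 difference of 0.24 (95% interval 0.001 to 0.479, adjusted p = 0.423). That value rests on the control pair: it was 0.44 without control replicate 2 of day 0, with an adjusted p of 0.0225 and still under the fold limit, and 0.04 without control replicate 1 (adjusted p = 0.9). The other 9 overlapped between the genotypes, and their log2 differences ran from -0.04 for Bid to 0.10 for Bcl2l1. The widest of these intervals, that of Pmaip1, ran from -0.18 to 0.23, so a difference of the size of the fold limit lay outside all 9.

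Activation changed the make-up of the family in control cells. Of the 10 members, 7 were called higher and 1 lower on day 3, against 24.8% and 33.0% of all genes tested. With no fold limit all 10 passed the adjusted p, 7 higher and 3 lower, as did 37.0% and 47.5% of all genes. The median of all genes moved by -0.12 on the log2 scale, and by 0.07 after median-of-ratios scaling or -0.31 after scaling to equal totals, so the changes below are to be read against shifts of that size. On the median-of-ratios scale the calls over all genes turned from 2687 higher and 3571 lower to 3433 higher and 2731 lower. Of the marker lists, 9 of 9 myeloid, 7 of 7 tested T and NK, 3 of 4 tested erythroid and 6 of 7 B cell markers were called lower on day 3 in control cells, with B cell marker sums of 4480 to 4670 FPKM on day 0 and 2260 to 2270 FPKM on day 3, and their part in the changes of the 10 genes was not tested.

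Bcl2l1 encodes BCL-XL, a survival protein of the mitochondrial membrane (chr2:152780668-152831728, minus strand). It was at 4.57 and 4.06 FPKM in naive control cells and at 55.4 and 55.9 FPKM on day 3. The lowest activated library was thus far above the highest naive library, and the log2 change of 3.42 ± 0.07 (SE) was the largest of the 10 (adjusted p = 6.88e-12, limma). In Mct1-deficient cells it went from 5 and 4.36 FPKM to 42.2, 40.99 and 42.9 FPKM, a log2 change of 2.92 (adjusted p = 8.87e-12).

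Bcl2a1b encodes a mouse A1 protein, a short-lived survival member known as an NF-κB target in lymphocytes. It rose from 41.5 and 45.3 FPKM to 269.5 and 273.8 FPKM in control cells, by 2.62 ± 0.07 (SE) on the log2 scale (adjusted p = 5.86e-11). In Mct1-deficient cells it rose from 40.6 and 44.0 FPKM to 177.5, 208.1 and 194.7 FPKM, by 2.17 (adjusted p = 1.12e-10). The near-identical Bcl2a1d went the same way, from 20.6 and 16.7 FPKM to 219.5 and 215.3 FPKM in control cells. Bcl2a1a instead stood at 7.84 and 9.71 FPKM on day 0 and at 0.93 and 0.61 FPKM on day 3, a log2 change of -2.46 (adjusted p = 6.79e-07). A further copy, Bcl2a1c, was at 0.92 and 0.94 FPKM and then at 4.53 and 5.25 FPKM, a log2 change of 1.607 (adjusted p = 6.46e-08). The FPKM of Bcl2a1a thus moved the other way from those of the other copies, and ended near 0. Since 41.1% of the 50-base words of Bcl2a1b occur in Bcl2a1a, reads may be split unevenly between them, and the part of this was not tested.

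Mcl1, which encodes a survival protein needed throughout B cell life (chr3:95658788-95663176, plus strand), was called lower on activation in both genotypes. Its level was 316.9 and 302.7 FPKM in naive control cells and 126.5 and 123.3 FPKM on day 3, a log2 change of -1.30 ± 0.05 (SE, adjusted p = 6.63e-10). Naive Mct1-deficient cells held 297.2 and 317.2 FPKM and activated ones 125.3, 117.3 and 121.5 FPKM, a log2 change of -1.33 (adjusted p = 2.52e-10). The activated libraries of both genotypes lay between 117.3 and 126.5 FPKM, all below the lowest naive library.

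Bcl2, the founding survival gene (chr1:106538178-106714274, minus strand), was at 19.4 and 19.3 FPKM in naive and 14.1 and 15.0 FPKM in activated control cells. Its log2 change of -0.39 ± 0.07 (SE) passed the adjusted p (0.00019) and not the fold limit, and it passed both in Mct1-deficient cells, at -0.71 (adjusted p = 5.12e-07). The control change was -0.58 and past the limit with libraries scaled to equal totals, and -0.19 after median-of-ratios scaling (adjusted p = 0.0181). Exons of D630008O14Rik on the other strand overlap 6.09% of its exon bases.

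Among the effectors, Bax was called higher in control cells, from 63.2 and 69.0 FPKM to 152.6 and 137.4 FPKM (log2 change 1.12 ± 0.07, SE, adjusted p = 2.82e-08). Bak1 was called higher as well, from 61.1 and 65.8 FPKM to 104.5 and 103.8 FPKM (log2 change 0.71 ± 0.05, SE, adjusted p = 1.61e-07). Bax and Bak1 encode the pore-forming proteins, and their naive libraries overlapped while their activated control libraries did not. In Mct1-deficient cells both Bax (gene at chr7:45461697-45466898, minus strand) and Bak1 (chr17:27019810-27029009, minus strand) were again called higher, Bax by 0.90 and Bak1 by 0.745 on the log2 scale. Of the exon bases of Bak1, 25.5% overlap Ggnbp1 on the other strand, and 12.2% of those of Bax overlap Gm45808 on the same strand.

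The BH3-only genes did not all go the same way. Bbc3 (chr7:16308393-16318205, plus strand) rose from 4.43 and 6.2 FPKM to 20.5 and 19.9 FPKM in control cells (log2 change 1.76 ± 0.11, SE, adjusted p = 3.65e-08). Bcl2l11, which encodes BIM and whose promoter with the FOXO letters is shown above (gene at chr2:128126038-128162547, plus strand), rose from 17.9 and 17.4 FPKM to 46.6 and 48.1 FPKM (log2 change 1.37 ± 0.06, SE, adjusted p = 1.88e-09). Pmaip1, which encodes the MCL-1-binding protein NOXA (chr18:66458533-66465565), was at 15.1 and 16.5 FPKM and then at 22.5 and 24.2 FPKM, a log2 change of 0.53 ± 0.09 (SE, adjusted p = 2.24e-04). That change was close to the fold limit and was 0.34 after scaling to equal totals. Bid, which links death receptors to mitochondria once caspase-8 cleaves it (chr6:120891930-120916853, minus strand), was at 35.1 and 36.4 FPKM and then at 30.6 and 29.9 FPKM. The change in Bid of -0.23 ± 0.05 (SE, adjusted p = 9.57e-04) was under the fold limit and was -0.03 with an adjusted p of 0.655 after median-of-ratios scaling.

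In Mct1-deficient cells 6 members were called higher and 2 lower on activation, against 23.4% and 33.2% of all genes, and the count of 8 was the same without replicate 1 of day 0. Bcl2l11 rose by 0.68 on the log2 scale, from 19.5 and 17.4 FPKM to 31.1, 29.2 and 29.98 FPKM (adjusted p = 3.19e-07). Bbc3 rose by 1.28 to 16.01, 17.0 and 17.9 FPKM (adjusted p = 2.4e-07). Pmaip1 was at 17.9 and 14.5 FPKM on day 0 and at 17.7, 16.7 and 15.8 FPKM on day 3, and the 3 activated libraries lay inside the range of the naive pair. The log2 change of Pmaip1 was 0.05 (95% interval -0.14 to 0.23, adjusted p = 0.61), and it turned to -0.12 after scaling to equal totals. Bid, of whose exon bases 17.7% overlap Bcl2l13 on the other strand, changed by -0.08 (95% interval -0.17 to 0.02, adjusted p = 0.129), and by 0.14 after median-of-ratios scaling.

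**Figure D2:**
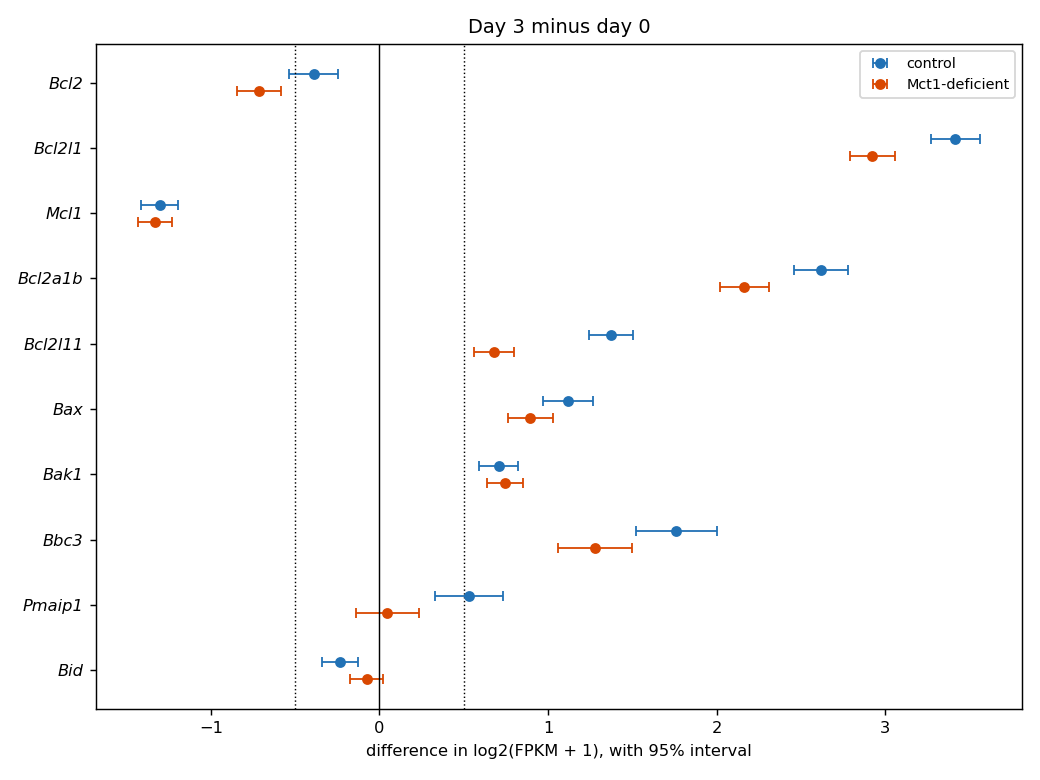
Change on activation of the 10 genes, as day 3 minus day 0 in log2(FPKM + 1), in control cells (blue) and Mct1-deficient cells (orange). Points are limma estimates, bars 95% intervals and dotted lines the fold limit of 0.5. Bcl2l1 changed most in both, at 3.42 and 2.92, and Mcl1 fell in both, at -1.30 and -1.33.

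The transcripts of the 4 survival members were then added up in each library, since FPKM are per length. Other survival genes were left out, among them Bcl2a1d, at a mean of 217 FPKM in activated control and 136 FPKM in activated Mct1-deficient cells. The shares below are therefore of this sum and not of all survival transcripts. Their sum was 377 ± 7.88 FPKM (SD, n = 2) in naive control cells and 373 ± 14.6 FPKM (n = 2) in naive Mct1-deficient cells. Mcl1 made up 82.2% and 82.3% of it. On day 3 the sum was 467 ± 1.8 FPKM (n = 2) in control cells, of which Bcl2a1b made up 58.2%, Mcl1 26.8%, Bcl2l1 11.9% and Bcl2 3.12%. In Mct1-deficient cells the sum on day 3 was 368 ± 11.2 FPKM (n = 3), and each of the 3 libraries (356.0, 378.0 and 370.2 FPKM) lay under both control libraries (465.5 and 468.1 FPKM). Bcl2a1b made up 52.5% and Mcl1 33.0% there. Among the 4 survival members, the place of the most abundant transcript thus passed from Mcl1 to Bcl2a1b in both genotypes.

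**Figure D3:**
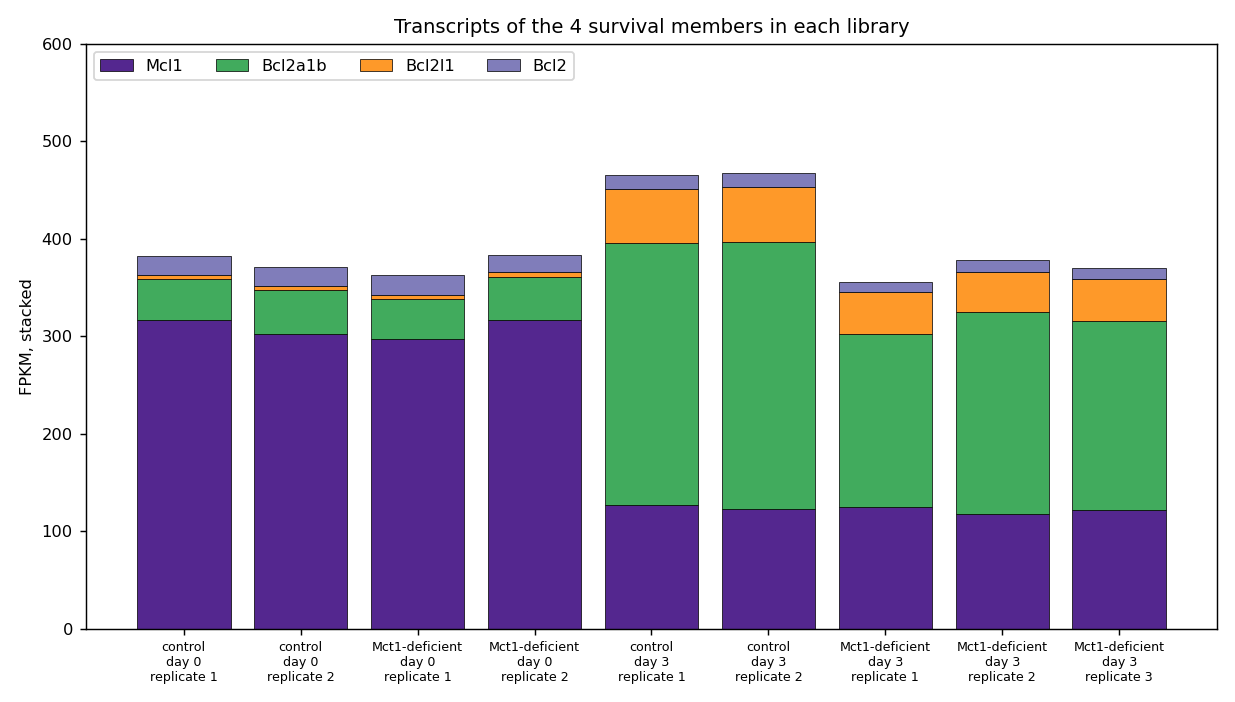
FPKM of Mcl1, Bcl2a1b, Bcl2l1 and Bcl2 stacked for each of the 9 libraries, with the vertical axis from 0. The Mcl1 block is the tallest in the 4 naive libraries and the Bcl2a1b block in the 5 activated ones, and the stacks of the activated control libraries, 465.5 and 468.1 FPKM, are the tallest.

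The summed transcripts of the 4 BH3-only members were set against those of the 4 survival members. For each 100 FPKM of survival transcripts there were 19.8 ± 1.15 FPKM (SD, n = 2) of BH3-only transcripts in naive and 25.9 ± 0.18 FPKM (n = 2) in activated control cells. In Mct1-deficient cells the values were 20.4 ± 2.23 FPKM (n = 2) and 26.3 ± 0.873 FPKM (n = 3), and the activated libraries of the genotypes overlapped. The ratio of Bcl2l11 alone did not overlap on day 3, at 10.0 and 10.3 FPKM per 100 in control and 8.73, 7.74 and 8.10 FPKM per 100 in Mct1-deficient libraries. These ratios hold for the members only, since Bcl2a1d was left out of the survival sum. Bcl2a1d was at 18.7 FPKM in naive and 217 FPKM in activated control cells, and at 20.8 and 136 FPKM in Mct1-deficient cells. The BH3-only gene Bmf, at 17.6 FPKM in naive and 1.96 FPKM in activated control cells, was left out too. With both genes counted in each library, the ratio would be lower on day 3 than on day 0 in both genotypes. The activated libraries of the genotypes would then not overlap, with Mct1-deficient above control. The rise on activation and the overlap given above thus depend on which genes are counted, and further genes were not tested. A sum of transcripts does not weigh how strongly each protein binds another.

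The comparison of the genotypes on day 3 asks what the loss of Mct1 changes in activated cells. Of the 10 members, 1 was called lower in Mct1-deficient cells, Bcl2l11, while 1.53% of all genes tested were called lower, and 0 members were called higher, against 0.887% of all genes. At the adjusted p alone, 6 members were lower, against 9.21% of all genes, and 0 were higher, against 6.03%, with 1 higher member, Bid, at an unadjusted p under 0.05. In 7 members all 3 Mct1-deficient libraries lay below both control libraries, against 26.1% of all genes, and in 2, Bak1 and Bid, all lay above, against 21.0%. The median log2 difference of the 10 was -0.30, against -0.01 over all genes. The count of called members was 3 without the control replicate 1 of day 3 (Bcl2a1b and Pmaip1 joined) and 2 without the Mct1-deficient replicate 2 of day 3 (Bcl2a1b joined).

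Bcl2l11 had the largest difference, at 46.6 and 48.1 FPKM in control and 31.1, 29.2 and 29.98 FPKM in Mct1-deficient libraries. The level was 63.6% of that in control, and the log2 difference was -0.64 ± 0.05 (SE, adjusted p = 4.32e-05, limma). Across the 19 alternatives this difference stayed between -0.66 and -0.58, with an adjusted p of at most 0.00182. Of the other BH3-only genes, Pmaip1 stood at 22.5 and 24.2 FPKM against 17.7, 16.7 and 15.8 FPKM, 71.7% of control. Its log2 difference of -0.46 ± 0.08 (SE, adjusted p = 0.00445) was under the fold limit.

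Bbc3 was at 20.5 and 19.9 FPKM in control and 16.01, 17.0 and 17.9 FPKM in Mct1-deficient libraries, with no overlap. The difference in Bbc3 was -0.24 on the log2 scale (95% interval -0.46 to -0.02) and missed the adjusted p, at 0.134. Bid stood on the other side, at 30.6 and 29.9 FPKM against 32.0, 33.3 and 33.3 FPKM. Its log2 difference of 0.115 (95% interval 0.02 to 0.21) also missed the adjusted p, at 0.112.

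Of the survival genes, Bcl2a1b had the largest difference. It stood at 269.5 and 273.8 FPKM in control and at 177.5, 208.1 and 194.7 FPKM in Mct1-deficient libraries, 71.2% of control, with a log2 difference of -0.49 ± 0.07 (SE, adjusted p = 7.72e-04). This was just under the fold limit, and Bcl2a1b was past it without the Mct1-deficient replicate 2 of day 3 (-0.55), without the control replicate 1 of day 3 (-0.50) and after quantile normalization (-0.565). Bcl2l1 was at 55.4 and 55.9 FPKM against 42.2, 40.99 and 42.9 FPKM, 75.5% of control (log2 difference -0.40 ± 0.06, SE, adjusted p = 0.00169). Bcl2 was at 14.1 and 15.0 FPKM against 10.8, 11.6 and 11 FPKM, 76.6% of control (log2 difference -0.36 ± 0.06, SE, adjusted p = 0.00279). For all 3 the groups did not overlap. Mcl1 overlapped, at 126.5 and 123.3 FPKM against 125.3, 117.3 and 121.5 FPKM, with a log2 difference of -0.04 (95% interval -0.14 to 0.06, adjusted p = 0.611).

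Of the effectors, Bax was at 152.6 and 137.4 FPKM in control and 126.0, 130.2 and 121.0 FPKM in Mct1-deficient libraries, 86.8% of control. Its log2 difference of -0.20 ± 0.06 (SE) had an adjusted p of 0.0482, which lay between 0.0259 and 0.356 over the alternatives, the latter without the control replicate 1 of day 3. Bak1 was at 104.5 and 103.8 FPKM against 112.8, 106.5 and 112.2 FPKM, a log2 difference of 0.08 (95% interval -0.02 to 0.19, adjusted p = 0.273). Of the myeloid markers, Lyz2 and Adgre1 were called higher in Mct1-deficient libraries on day 3, with summed myeloid markers of 31.5 to 35.9 FPKM against 24.1 to 26.9 FPKM in control, and their part in these differences was not tested.

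**Figure D4:**
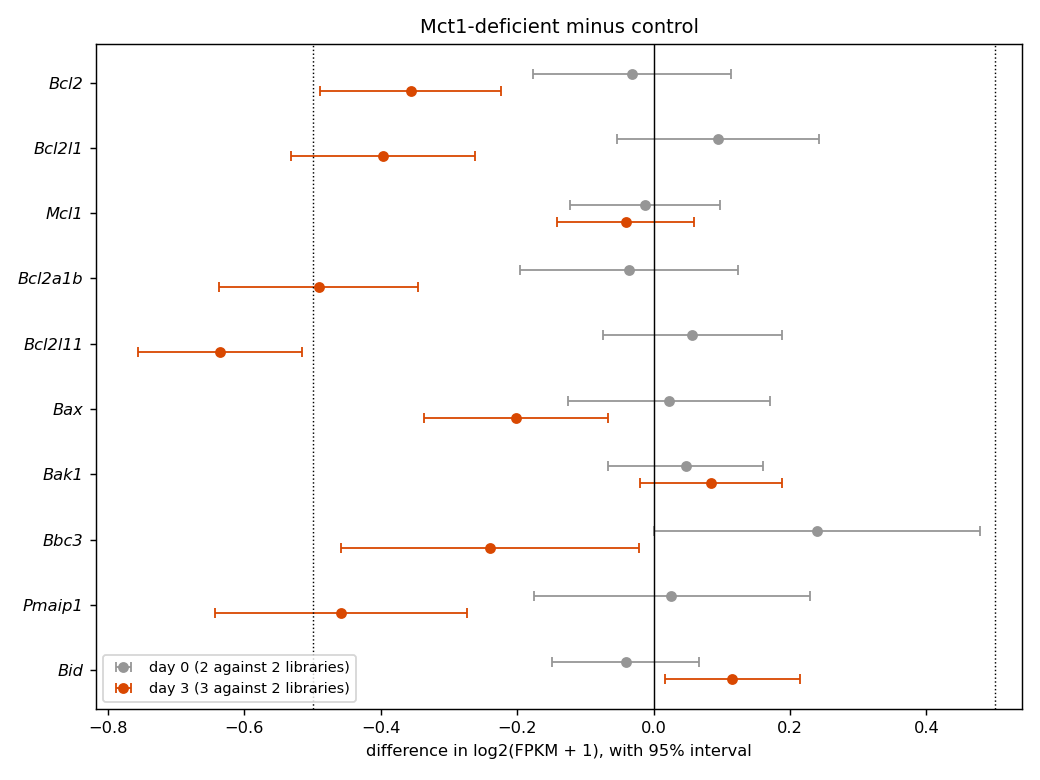
Difference between Mct1-deficient and control cells in log2(FPKM + 1) for the 10 genes, on day 0 (grey) and day 3 (orange). Points are limma estimates, bars 95% intervals and dotted lines the fold limit of 0.5. On day 3 Bcl2l11 lies past the limit at -0.64, and Mcl1, Bak1 and Bid lie near 0 or above it.

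Whether the genotype difference changed with activation was tested as an interaction. The sex of the mice, read from Ddx3y, differed among the day 0 libraries and between the days, and its part in the interaction was not tested. Of the 10 members, 1 had a called interaction, Bcl2l11, and it was negative, against 2.22% of all genes, and 5 passed the adjusted p alone with a negative value, against 5.61%, and 0 with a positive value, against 3.82%, with Bid positive at an unadjusted p under 0.05. The interaction of Bcl2l11 was -0.69 ± 0.08 (SE, adjusted p = 9.36e-04, limma), with day 0 levels of 17.9 and 17.4 FPKM in control and 19.5 and 17.4 FPKM in Mct1-deficient libraries. Bcl2l1 (-0.49, adjusted p = 0.00921), Pmaip1 (-0.48, adjusted p = 0.0368), Bcl2a1b (-0.46, adjusted p = 0.0178) and Bcl2 (-0.32, adjusted p = 0.046) passed the adjusted p and not the fold limit. Bbc3 had a value of the same size with a wider error, -0.48 ± 0.15 (SE, adjusted p = 0.0674), and it was -0.68 and called without control replicate 2 of day 0 (adjusted p = 0.00259) and -0.28 without control replicate 1. Over the alternatives the adjusted p reached 0.155 for Bcl2, 0.125 for Pmaip1 and 0.0695 for Bcl2a1b. For Mcl1 the interaction was -0.03 (95% interval -0.18 to 0.12), and for Bak1 it was 0.04 (95% interval -0.12 to 0.19). Without the Mct1-deficient library of day 0 that stood apart, 2 members were called in the interaction. The count was 4 without the control replicate 2 of day 0, when Bbc3, Bcl2a1b and Pmaip1 joined Bcl2l11.

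The rest of the apoptosis pathway was read from 6 lists of 61 further genes, of which 54 passed the limit for testing. On day 3, 3 of the 54 were called lower in Mct1-deficient cells and 0 higher, against 1.53% and 0.887% of all genes. At the adjusted p alone 17 were lower and 2 higher, against 9.21% and 6.03% of all genes. Their median log2 difference was -0.10. The 3 called were Bcl2a1d, Cdkn1a and Phlda3, and in each all Mct1-deficient libraries lay below both control libraries. The count was 2 when any 1 of the 5 libraries of day 3 was left out, with the replicate block, with no trend and with a pseudocount of 5.

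Bcl2a1d, the copy that shares the most sequence with Bcl2a1b, stood at 219.5 and 215.3 FPKM in control and at 132.4, 141.0 and 133.1 FPKM in Mct1-deficient libraries (log2 difference -0.68 ± 0.07, SE, adjusted p = 1.71e-04). It was the only 1 called of 10 other BCL2 family genes tested. Cdkn1a, which encodes the cell cycle inhibitor p21 and is a p53 target, stood at 35.6 and 34.4 FPKM against 17.5, 17.9 and 18.6 FPKM (log2 difference -0.92 ± 0.09, SE, adjusted p = 1.26e-04). Phlda3, a p53 target that restrains AKT, stood at 13.8 and 14.9 FPKM against 8.30, 9.31 and 10.1 FPKM (log2 difference -0.59 ± 0.17, SE, adjusted p = 0.0415).

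Of the 11 tested genes of the p53 axis, to which these last 2 belong, 7 were lower at the adjusted p alone and 0 higher, with a median log2 difference of -0.33. The shares over all genes, 9.21% lower and 6.03% higher, apply to this and the following lists. Bbc3, Pmaip1 and Bax are p53 targets too and are counted among the members. The caspases and apoptosome genes had 3 of 14 lower and 0 higher, and the inhibitors of apoptosis with Cflar had 2 of 6 lower and 0 higher. The death receptor list had 2 of 7 lower and 1 higher. The list of Mcl1 turnover and channel genes had 0 of 6 lower and 1 higher.

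**Figure D5:**
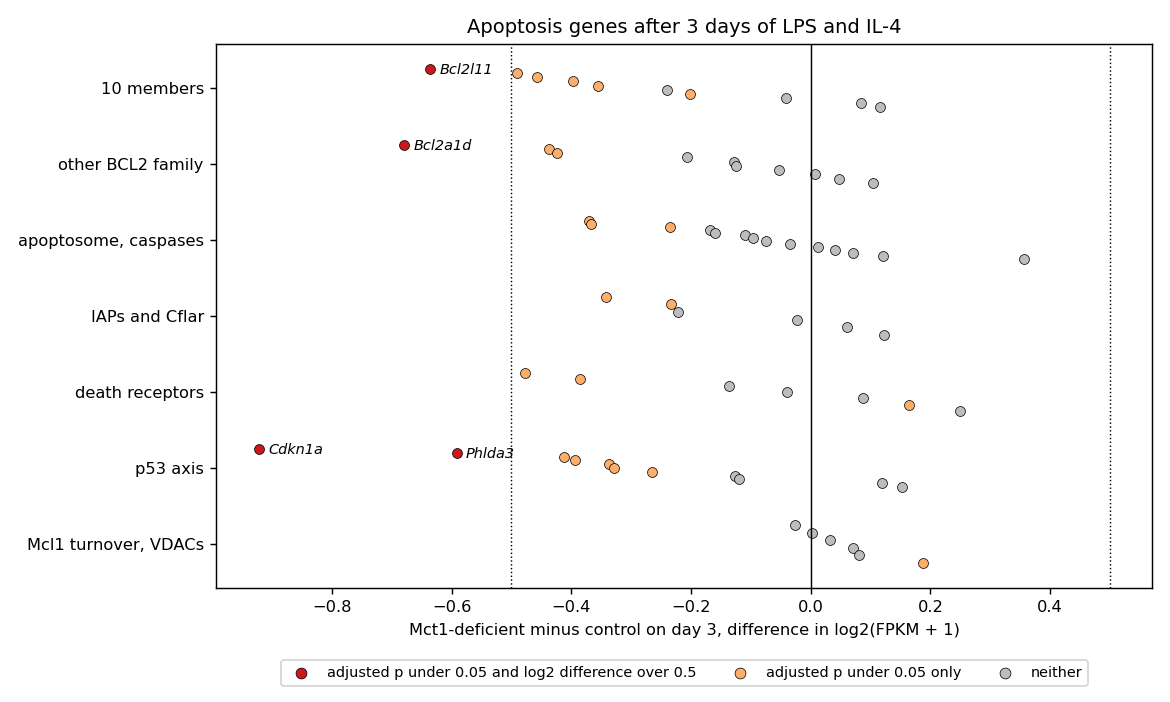
Difference between Mct1-deficient and control cells on day 3 in log2(FPKM + 1), with 1 point per tested gene, for the 10 members and 6 lists of other apoptosis genes. Red marks genes past the adjusted p and the fold limit, orange those past the adjusted p alone, grey the rest, and dotted lines the fold limit of 0.5. The 4 red genes, Bcl2l11, Bcl2a1d, Cdkn1a and Phlda3, all lie to the left of 0.

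On activation of control cells 23 of the 54 further genes were called higher and 8 lower, and in Mct1-deficient cells 24 were called higher and 11 lower. The shares over all genes were 24.8% and 33.0% in control and 23.4% and 33.2% in Mct1-deficient cells. Among other BCL2 family genes, Bcl2a1d (3.48) and Bnip3 (2.81), a mitophagy gene induced by hypoxia, had the largest log2 increases in control cells. Bmf, a BH3-only gene, had the largest decrease, from 16.02 and 19.1 FPKM to 2.03 and 1.90 FPKM (log2 change -2.64, adjusted p = 4.43e-10). Bmf thus went the other way from Bcl2l11 and Bbc3.

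Of the list of caspases and apoptosome genes, Cycs, which encodes cytochrome c, rose by 1.47 on the log2 scale and Htra2 rose by 1.12. Among the inhibitors of apoptosis, Birc5, also a mitotic protein, rose by 3.365, Cflar, which restrains caspase-8, rose by 1.34, and Birc2 rose by 1.16. Of the death receptors, Tnfrsf1a was called lower, with a log2 change of -3.78, while Fas rose by 2.78 and Tnfrsf10b by 1.26. In the p53 axis Sesn1 was called lower (-3.11), and Phlda3 rose by 3.06 and Cdkn1a by 2.80. Among the genes of Mcl1 turnover and the outer membrane channels, Fbxw7, a ubiquitin ligase that targets MCL-1, rose by 1.335 and the channels Vdac3 and Vdac1 by 1.00 and 0.95.

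For 9 of the members, the gene outside the 10 whose log2(FPKM + 1) followed it most closely over the 9 libraries was looked up. The points share the libraries, and most of their spread is the step from day 0 to day 3, so the values are a description. For Bcl2l11 it was Dennd11 (Pearson r = 0.997), and 380 tested genes had an r over 0.95 with it. For Bcl2 it was Tbkbp1 (0.991, with 286 genes over 0.95), and for Bcl2l1, Bcl2a1b and Mcl1 it was Ercc6l2, Plscr1 and Acap1, each at an r of over 0.99 and with 2532 to 3630 genes over 0.95. Bak1 (Suv39h1) and Bbc3 (Ifit1) were like these, with 2406 and 2253 genes over 0.95. Pmaip1 (Cilk1, r = 0.982) and Bid (Snx17, r = 0.962) stood apart, with 6 and 5 genes over 0.95.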

How the data were processed

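RNA sequencing was done on 9 libraries of primary B cells, grouped and numbered as GEO's labels give them. What the authors deposited are FPKM values, which are normalized to gene length and mapped fragments, for 17596 genes with 2 decimals. The submitters' processing notes name Bowtie2 and the builds GRCm38 and mm10. The role of each, the annotation and the counting of strand are not given in the sources used here. No counts were given. Low values moved in steps, as for S100a8 on day 3 (1.02 and 0.73 FPKM in control, 1.02, 0.44 and 0.15 FPKM in Mct1-deficient libraries). The depth was not worked out from such steps, so precision rests on 2 or 3 libraries per group.

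From the deposited FPKM, log2(FPKM + 1) was fitted for the 10823 genes averaging at least 1 FPKM with limma 3.58.1 (R 4.3.3), with 1 mean for each of 4 groups, a trend and Benjamini-Hochberg adjustment over all tested genes. Folds are on this scale and understate the changes of low genes. A call needed both an adjusted p under 0.05 and a log2 difference over 0.5 in size. The model was tested on simulated data. The members and the gene lists were chosen with earlier results of these data known. The text names all members, every listed gene called between the genotypes on day 3, in each list the 3 called genes with the largest change on activation of control cells, the Bcl2a1 copies, Slc16a1, markers of other cells, and the gene most like each member. Of these, 2 results are not reported here. Alternatives changed the pseudocount, the filter, the scaling, the samples in the fit, the replicate block, the trend and the fold limit, or left out 1 library. Gene positions are from GENCODE on GRCm38 and promoters from RefSeq on GRCm38.p6, read with Python 3.11.15, and figures were drawn with matplotlib 3.10.9.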

Additional observations from a re-analysis of the deposited data

Results flagged for a closer look

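The genotype difference differed between day 0 and day 3, by the interaction term in limma, for 5 of the 10 members at the adjusted p. On the log2 scale the interaction was -0.324 for Bcl2 (adjusted p = 0.046), -0.492 for Bcl2l1 (adjusted p = 0.00921), -0.455 for Bcl2a1b (adjusted p = 0.0178), -0.693 for Bcl2l11 (adjusted p = 9.36e-04) and -0.484 for Pmaip1 (adjusted p = 0.0368). These 5 were negative, as were 5.61% of all genes at the adjusted p, and 3.82% were positive. Of the 54 further pathway genes tested, 15 were negative and 1 positive at the adjusted p, and 5 were also past the fold limit. The 5 were Bcl2a1d (-0.832, adjusted p = 0.00159), Cdkn1a (-0.875, adjusted p = 0.00441), Fas (-0.724, adjusted p = 0.00309), Bnip3 (-0.681, adjusted p = 0.00549) and Bnip3l (-0.528, adjusted p = 0.00565). A negative value means that the Mct1-deficient level was lower relative to control on day 3 than on day 0. The part of the sex of the mice, which differed among the day 0 libraries and between the days, was not tested.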

How the results depend on the processing

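For the difference on day 3, the count of members called was 1 and became 2 after quantile normalization, 0 with a log2 limit of 1 and 6 with no limit, and it lay between 1 and 3 when 1 library was left out (3 without control replicate 1 of day 3, 2 without Mct1-deficient replicate 2 of day 3). The 3 pathway genes became 0 with the limit of 1, 19 with no limit, 2 with the replicate block, with no trend or with a pseudocount of 5, and 2 to 3 with 1 library left out. The 1 interaction became 3 with a pseudocount of 0.1, 2 after quantile normalization, 2 with the replicate block, 0 with the limit of 1, 5 with no limit and 1 to 4 with 1 library left out. On activation the 31 pathway genes called in control cells became 48 with no limit, and in Mct1-deficient cells the 8 members became 4 and the 35 pathway genes 19 with the limit of 1. The causes were not tested. Of the alternative values, 897 kept their direction and their side of the threshold, 19 passed a threshold, 4 no longer did and 20 changed sign.

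The sign changes were all of uncalled values. On day 0, with 1 library left out, the log2 difference ran from -0.113 to 0.049 for Bcl2, -0.059 to 0.034 for Mcl1, -0.097 to 0.026 for Bcl2a1b, -0.023 to 0.137 for Bcl2l11, -0.041 to 0.087 for Bax, -0.005 to 0.099 for Bak1, -0.119 to 0.171 for Pmaip1 and -0.086 to 0.004 for Bid. Bbc3 kept its sign there and ran from 0.036 to 0.443. The interaction ran from -0.075 to 0.018 for Mcl1 (0.003 after quantile normalization) and -0.014 to 0.089 for Bak1. On activation of Mct1-deficient cells Pmaip1 ran from -0.098 to 0.192 (-0.122 with equal totals), and Bid was 0.137 after median-of-ratios scaling. On activation of control cells Pmaip1 fell under the fold limit with a pseudocount of 5 (0.443), with equal totals (0.338) and without control replicate 1 of day 0 (0.471) or control replicate 2 of day 3 (0.48).

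Same-numbered libraries did not deviate together (r between -0.122 and 0.0867), so the numbers were not taken to pair the samples. With the replicate block 1 member was called on day 3 and 8 in each activation. Same-numbered control libraries had r = -0.122, and with their numbers crossed, an alternative chosen after seeing the data, 8 members and 31 pathway genes were called on activation of control cells. The depth was not worked out, so counting error is not given.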

Other observations

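The values below were singled out after they were seen, and Trp53 and Bik fall outside the naming rule, as does Bnip3l above. Fas, a death receptor, stood at 26.5 and 27.2 FPKM in control and 19.2, 18.4 and 19.4 FPKM in Mct1-deficient libraries on day 3. Bnip3, which encodes a mitophagy receptor of the BCL2 family, stood at 46.2 and 41.7 FPKM in control and 33.6, 34.6 and 29.5 FPKM in Mct1-deficient libraries on day 3. Trp53 itself was at 140.5 and 141.6 FPKM in control and 153.4, 154.2 and 152.1 FPKM in Mct1-deficient libraries, and was the 1 pathway gene with a positive interaction at the adjusted p, of 0.20 (adjusted p = 0.0468, limma). Bik, a BH3-only gene under the limit for testing, was at 1.07 and 1.20 FPKM in control and 0.56, 0.39 and 0.28 FPKM in Mct1-deficient libraries on day 3, and at most 0.06 FPKM on day 0.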
